A study of Homo sapiens with 4 samples.

Results

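Collagen genes were followed in MCF12A cells, a non-tumorigenic line of human mammary epithelial cells, with and without the distal promoter of the long noncoding RNA gene *C1orf132*. The collagens were taken by symbol, as every gene named COL, a number, A and a number, other than *COL17A1*, and genes with low values were kept. This gave 21 of the 16811 genes in the table, from a list of 43 collagen symbols. The others of the list, *COL1A2*, *COL3A1* and *COL6A3* among them, were not analysed here.

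RNA-seq was made from 2 libraries of edited cells and 2 libraries of wild-type cells. In the edited cells the p2 promoter of *C1orf132* had been deleted with CRISPR/Cas9 and a pair of guide RNAs. GFP-positive single cells were sorted after transfection and grown into colonies, and the sources used here do not say which colony, or how many, gave the libraries. Wild-type cells were unedited MCF12A cells. Both groups were grown in DMEM/F12 with horse serum, EGF, hydrocortisone, cholera toxin and insulin. The sample labels call the source a breast cancer cell line. The labels could not be checked on the targeted gene, since *C1orf132* was not analysed here.

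Collagens are trimeric proteins of the extracellular matrix. Fibrillar collagens form the fibers of connective tissue, type IV collagens form the sheet-like network of basement membranes, and the remaining types decorate fibrils, anchor epithelium to the tissue below it, or span the cell membrane. In the breast, the basal epithelial layer rests on a basement membrane. The miR-29 family, miR-29a, miR-29b and miR-29c, is known for binding the 3′ UTRs of many collagen mRNAs and lowering their levels. *C1orf132* is the host gene of miR-29b2 and miR-29c, so collagens are known targets of the microRNAs made from the edited locus.

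The 3 mature miR-29 sequences of RefSeq (GRCh38.p14) are shown because they share the seed through which they recognise collagen mRNAs. The copy of miR-29a lies at chr7:130876748-130876769, that of miR-29b2 at chr1:207802450-207802472 and that of miR-29c at chr1:207801865-207801886, all on the minus strand. Another gene of miR-29b, *MIR29B1*, is not placed here. Capitals mark the seed, bases 2 to 8, which is identical in all 3.
hsa-miR-29a-3p: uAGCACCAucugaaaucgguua
hsa-miR-29b-3p: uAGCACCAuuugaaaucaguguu
hsa-miR-29c-3p: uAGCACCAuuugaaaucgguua

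The reverse complement of the seed, TGGTGCT, was searched on the sense strand of the annotated 3′ UTR of 1 transcript per gene (GENCODE version 44 on GRCh37). At least 1 match was found in 13 of the 21 collagens (61.9%), against 1994 of 12404 genes with a UTR (16.1%). The collagen UTRs had a median length of 1035 bases against 1277 bases over all genes, and held 0.733 matches per kb against 0.1. A match is a match of letters only. The sites of the collagens that the comparisons below turn on are shown 5′ to 3′ with the match in capitals, for *COL27A1* and *COL1A1*, for the 4 type IV collagens, for the first of a pair in *COL7A1* and for *COL8A1*.
COL27A1, UTR bases 605 to 611: ccactgtgaaatcgcTGGTGCTc
COL1A1, UTR bases 923 to 929: tggggagggaatcacTGGTGCTa
COL4A1, UTR bases 30 to 36: gctaatgtcacaacaTGGTGCTa
COL4A2, UTR bases 28 to 34: caggaagggccatttTGGTGCTt
COL4A5, UTR bases 106 to 112: tactgctgccgtcaaTGGTGCTa
COL4A6, UTR bases 222 to 228: ctgtttctgtcaagcTGGTGCTa
COL7A1, UTR bases 77 to 83: cactgtccctcccctTGGTGCTa
COL8A1, UTR bases 2624 to 2630: ctgtgcattctacaaTGGTGCTa

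Each value is a signal already adjusted by the authors for the length of the transcript and between libraries, so levels can be set side by side between genes. The values of a library summed to 1444644 to 1655437. The depth was estimated at 32400000 to 43000000 reads per library. Wherever 4 values are given, those of edited cells come first, replicate 1 before replicate 2 in each group. Edited and wild-type cells were compared with limma on log2(value + 1) over all 16811 genes, and a gene was called at an adjusted p under 0.05. On this scale the change of a gene with a low value is understated. An exact permutation test of 2 against 2 libraries cannot go below p = 0.333, so no single-gene permutation test was made. Nothing in the sources says that libraries of a group came from separate cultures, so p-values measure only the spread between these libraries.

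Of the 21 collagens, 2 fell in edited cells and 0 rose at the threshold of limma. Over all genes, 3.4% were called lower and 1.33% higher. No gene of the table kept its call when either wild-type library was left out. At an unadjusted p under 0.05, 7 collagens were lower and 2 higher, against 15% and 14.2% of all genes. The libraries did not overlap for 12 of the 21, with both edited libraries below both wild-type libraries in 10 and above them in 2, while over all genes 30.2% lay below and 31.4% above without overlap. The median log2 fold change of the collagens was -0.39, and the single values ranged from -2.60 to 2.06. Over all genes the median was 0.01. By class, the median was -1.23 over the 4 fibrillar collagens, -0.20 over the 4 type IV collagens and -0.07 over the 13 others. In a bulk sample, fewer cells making a collagen and less of its RNA per cell cannot be told apart.

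**Figure D1:**
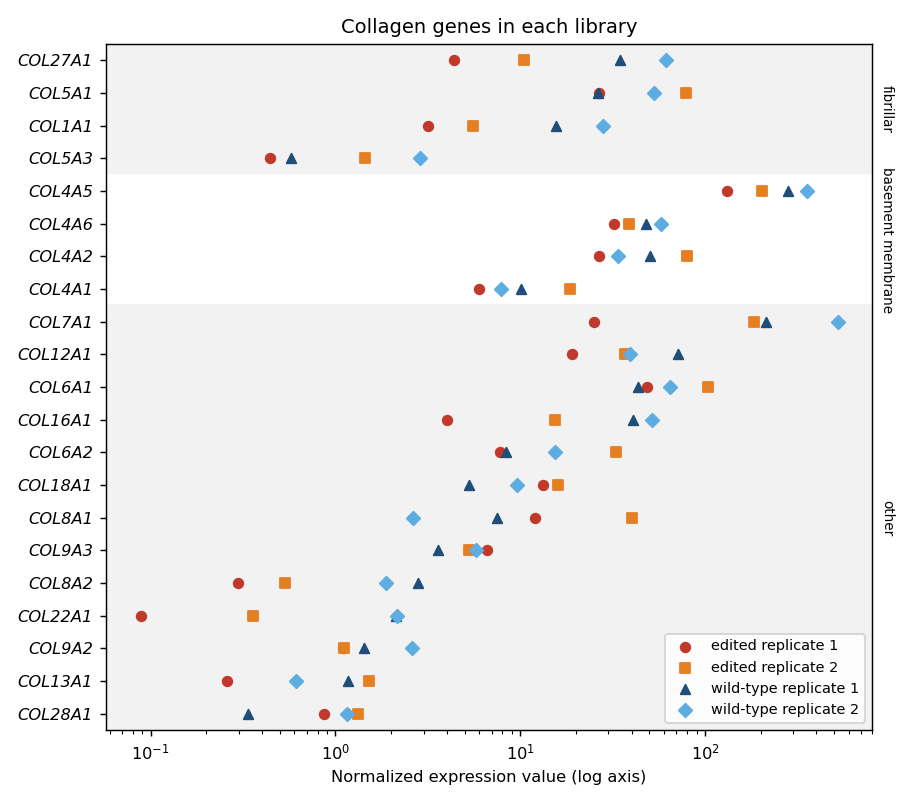
Value of each of the 21 collagens in each library (length-scaled signal, log axis), grouped by class, with 1 point per library of edited or wild-type cells. The lowest values are those of *COL22A1* in edited replicate 1 (0.0882), the highest those of *COL7A1* in wild-type replicate 2 (521), and in 20 of 21 collagens edited replicate 2 lies above edited replicate 1.

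The fibrillar class held both collagens that passed the test. *COL27A1* (chr9:114154098-114312511, GRCh38.p14) encodes a fibrillar collagen best known from cartilage. It measured 4.37 and 10.4 in edited cells and 34.8 and 61.8 in wild-type cells. Both edited libraries lay well below both wild-type libraries, with a wild-type mean 6.53-fold that of edited cells. The log2 fold change was -2.60 ± 0.45 (SE, n = 2 and 2, limma adjusted p = 0.0467). *COL1A1* (chr17:50184101-50201631, GRCh38.p14) encodes the alpha 1 chain of type I collagen, the main collagen of skin and bone, whose partner chain gene *COL1A2* was not analysed here. Its value was 3.19 and 5.58 in edited cells and 15.6 and 28.1 in wild-type cells. The groups did not overlap, and the wild-type mean was 4.98-fold that of edited cells. The log2 fold change was -2.06 ± 0.37 (SE, n = 2 and 2, limma adjusted p = 0.0490).

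Both calls lie close to the threshold and rest on all 4 libraries. When edited replicate 1 or 2 was left out, the limma adjusted p of *COL27A1* was 0.142 or 0.0531. When wild-type replicate 1 or 2 was left out, it was 0.133 or 0.250, with log2 fold changes from -3.14 to -2.06. For *COL1A1* it was 0.187, 0.0775, 0.127 and 0.238 in the same order, with log2 fold changes from -2.47 to -1.66. The direction was the same in every such fit, and each leaves 1 sample in a group, which is then assumed to vary like the other group. The estimated reads behind *COL1A1* were 185 and 366 in edited cells and 793 and 1645 in wild-type cells.

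The other fibrillar collagens did not follow this pattern. *COL5A1*, a chain of type V collagen that starts and regulates the diameter of fibrils, had the highest mean of the class in edited cells. Its value was 26.8 and 79.2 in edited cells and 26.4 and 52.6 in wild-type cells, so that the groups overlapped. The log2 fold change was 0.30 ± 0.58 (95% interval -1.17 to 1.78, limma adjusted p = 0.774), an interval that holds changes of either sign. Without edited replicate 2 it was -0.46, and without wild-type replicate 1 it was -0.18. *COL5A3*, another type V chain, was listed between 0.445 and 2.86 in the 4 libraries, with overlapping groups. Summed over the 4 fibrillar genes, the value was 34.8 and 96.6 in edited cells and 77.4 and 145 in wild-type cells.

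The type IV collagens fell into pairs. Their genes lie head to head on the chromosome and encode chains that assemble together: *COL4A1* with *COL4A2* on chromosome 13 make the network found in nearly every basement membrane, and *COL4A5* with *COL4A6* lie on chromosome X. None of the 4 was called in limma, while *COL4A5* and *COL4A6* were lower at an unadjusted p under 0.05.

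*COL4A5* was the most abundant collagen of edited cells by its mean value. It measured 131 and 202 in edited cells and 280 and 355 in wild-type cells. Both edited libraries lay below both wild-type libraries, and the log2 fold change was -0.95 ± 0.27 (95% interval -1.64 to -0.25, limma adjusted p = 0.0993). Its partner *COL4A6* measured 32.3 and 38.9 in edited cells and 47.8 and 57.7 in wild-type cells. The groups again did not overlap, with a log2 fold change of -0.55 ± 0.20 (limma adjusted p = 0.147). The median log2 fold change of the 298 genes on chromosome X with a mean of at least 10 was 0.18.

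The pair on chromosome 13 behaved otherwise. *COL4A2* measured 26.7 and 80.3 in edited cells and 50.5 and 33.9 in wild-type cells. *COL4A1* measured 6.0 and 18.5 in edited cells and 10.1 and 7.87 in wild-type cells. In both genes edited replicate 1 was the lowest library and edited replicate 2 the highest, and the wild-type libraries lay between them. The log2 fold changes were 0.16 ± 0.54 (limma adjusted p = 0.873) and 0.24 ± 0.51 (limma adjusted p = 0.798). Without edited replicate 2 they were -0.61 and -0.51, and without wild-type replicate 2 the value of *COL4A2* was -0.12. The 150 genes on chromosome 13 had a median of -0.27.

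Within the type IV pairs the ratio of the chains varied less than the genes did. The ratio of *COL4A2* to *COL4A1* was 4.45 and 4.33 in edited cells and 4.99 and 4.31 in wild-type cells, a span of 1.16-fold, while the genes themselves spanned 3.01-fold and 3.09-fold. The ratio of *COL4A5* to *COL4A6* was 4.06 and 5.21 in edited cells and 5.86 and 6.14 in wild-type cells, a span of 1.51-fold against 2.7-fold and 1.79-fold for the genes. *COL6A1* and *COL6A2*, neighbours on chromosome 21, had ratios of 6.21 and 3.14 in edited and 5.18 and 4.18 in wild-type cells, a span of 1.98-fold against 2.39-fold and 4.24-fold. The chains of collagen IX, whose genes lie on different chromosomes, went the other way. The ratio of *COL9A3* to *COL9A2* was 6.0 and 4.73 in edited and 2.53 and 2.22 in wild-type cells, a span of 2.7-fold, against 1.83-fold and 2.38-fold for the genes. The estimated reads of *COL9A2* were only 31 to 74 per library, while those of the type IV genes were at least 384. The part of counting error in this ratio was not tested. Among these pairs the ratio was steadiest for *COL4A2* and *COL4A1*. With 4 libraries this is a description.

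**Figure D2:**
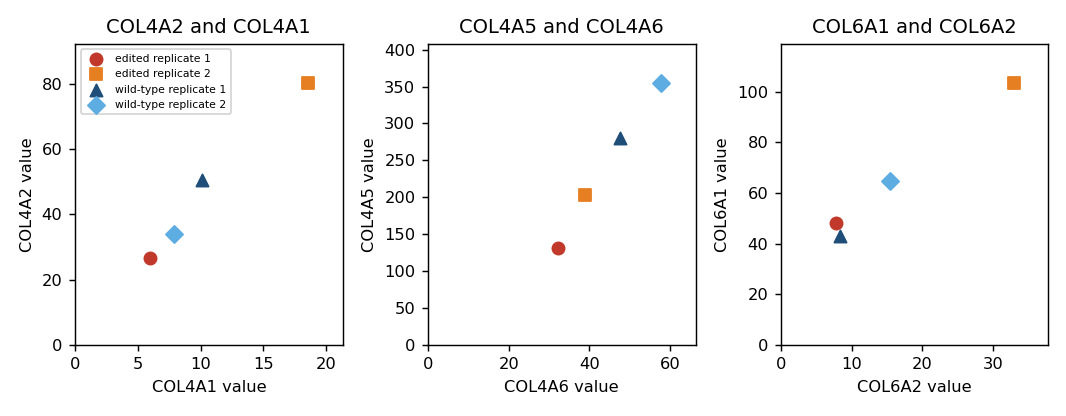
Value of one member of a collagen gene pair against the other in each library (length-scaled signal, both axes linear and starting at 0), for *COL4A1* with *COL4A2*, *COL4A5* with *COL4A6* and *COL6A1* with *COL6A2*. The 4 points of *COL4A1* and *COL4A2* keep a nearly constant ratio (4.31 to 4.99) although edited replicate 2 is 3.01-fold above edited replicate 1 in *COL4A2*.

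The stretch between the starts of both type IV pairs is shown because each pair is read outwards from it. The starts of *COL4A1* and *COL4A2* are 126 bases apart (chr13:110307158-110307283, GRCh38.p14, plus strand), and those of *COL4A5* and *COL4A6* are 379 bases apart, of which the 250 bases before *COL4A5* are given (chrX:108439588-108439837, GRCh38.p14, plus strand). Capitals mark GGGCGG, the GC box, and CCAAT, on either strand.
COL4A1-COL4A2: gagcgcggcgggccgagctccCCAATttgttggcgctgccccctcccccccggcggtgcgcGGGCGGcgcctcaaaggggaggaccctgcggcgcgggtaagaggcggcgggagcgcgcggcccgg
COL4A5-COL4A6: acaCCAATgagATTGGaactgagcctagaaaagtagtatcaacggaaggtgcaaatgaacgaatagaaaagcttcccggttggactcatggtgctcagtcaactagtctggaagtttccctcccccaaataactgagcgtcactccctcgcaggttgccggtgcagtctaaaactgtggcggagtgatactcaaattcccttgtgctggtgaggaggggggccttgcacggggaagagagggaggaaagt
In the RefSeq windows of 300 bases around a gene start, GGGCGG was found 2 times at *COL4A1*, 1 time at *COL4A2* and 0 times at *COL4A5*, and 44.9% of 35097 windows held it. CCAAT was found 1, 1 and 2 times, and 34.6% of windows held it. TATAAA, the TATA box, was found in none of the 3 windows, and 11.5% of all windows held it. The motifs do not overlap one another in the stretches shown.

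Among the other classes, *COL7A1* had the widest spread. It encodes the collagen of anchoring fibrils, which fasten stratified epithelium to the matrix below. Its value was 25.0 and 184 in edited cells and 213 and 521 in wild-type cells. Both edited libraries lay below both wild-type libraries, but edited replicate 2 was 7.36-fold above edited replicate 1 and close to wild-type replicate 1. The log2 fold change was -2.27 ± 0.97 (95% interval -4.73 to 0.20, limma adjusted p = 0.196). Without edited replicate 1 it was -0.85 and without edited replicate 2 it was -3.68. *COL7A1* made up 6.77% and 21.0% of the summed collagen value in edited cells and 24.6% and 39.5% in wild-type cells.

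The collagens that sit on fibril surfaces (FACIT) lay below the wild type without overlap in 4 of 5 genes, against 30.2% of all genes. None of the 5 passed the test. *COL16A1* measured 4.03 and 15.4 in edited cells and 40.6 and 51.6 in wild-type cells, with no overlap. Its log2 fold change was -2.36 ± 0.57 (limma adjusted p = 0.0739). When edited replicate 1 or 2 was left out, it was -1.51 (adjusted p = 0.132) or -3.22 (adjusted p = 0.0271), and the adjusted p was 0.190 or 0.325 when wild-type replicate 1 or 2 was. *COL12A1* measured 19.0 and 37.0 in edited cells and 71.6 and 39.0 in wild-type cells, so that edited replicate 2 and wild-type replicate 2 nearly met (log2 fold change -0.97 ± 0.42, limma adjusted p = 0.202). *COL22A1* was low, at 0.0882 and 0.358 in edited cells and 2.11 and 2.15 in wild-type cells (log2 fold change -1.36 ± 0.27, limma adjusted p = 0.0552). Its value in edited replicate 1 rests on about 6 reads. *COL9A2* and *COL9A3*, chains of the cartilage collagen IX, ranged from 1.10 to 6.57 in the 4 libraries. *COL9A2* counted among the 4 genes without overlap at values of at most 2.60 (limma adjusted p = 0.329).

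The short-chain network collagens lay on opposite sides. *COL8A1*, a chain of the type VIII collagen laid down around blood vessels and in the cornea, measured 11.9 and 40.1 in edited cells and 7.49 and 2.62 in wild-type cells. Both edited libraries were above both wild-type libraries (log2 fold change 2.06 ± 0.67, 95% interval 0.37 to 3.75, limma adjusted p = 0.121). With 1 library left out it ranged from 1.22 (edited replicate 2) to 2.89 (edited replicate 1), and none of these fits called it. The other chain, *COL8A2*, was low, at 0.299 and 0.533 in edited cells and 2.80 and 1.87 in wild-type cells (log2 fold change -1.23 ± 0.29, limma adjusted p = 0.0710). *COL18A1*, whose C-terminal fragment is endostatin, was the other collagen with both edited libraries on top, at 13.2 and 16.1 against 5.30 and 9.59 (log2 fold change 0.93 ± 0.31, limma adjusted p = 0.126).

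The beaded filament collagens overlapped between groups. *COL6A1* measured 48.3 and 103 in edited cells and 43.1 and 64.6 in wild-type cells (log2 fold change 0.41 ± 0.41, limma adjusted p = 0.546). *COL6A2* measured 7.78 and 32.9 in edited cells and 8.33 and 15.4 in wild-type cells (log2 fold change 0.48 ± 0.68, limma adjusted p = 0.682). Both were highest in edited replicate 2, and without that library the log2 fold changes were -0.13 and -0.50. *COL13A1*, a transmembrane collagen, and *COL28A1* stayed between 0.258 and 1.52 in all 4 libraries.

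**Figure D3:**
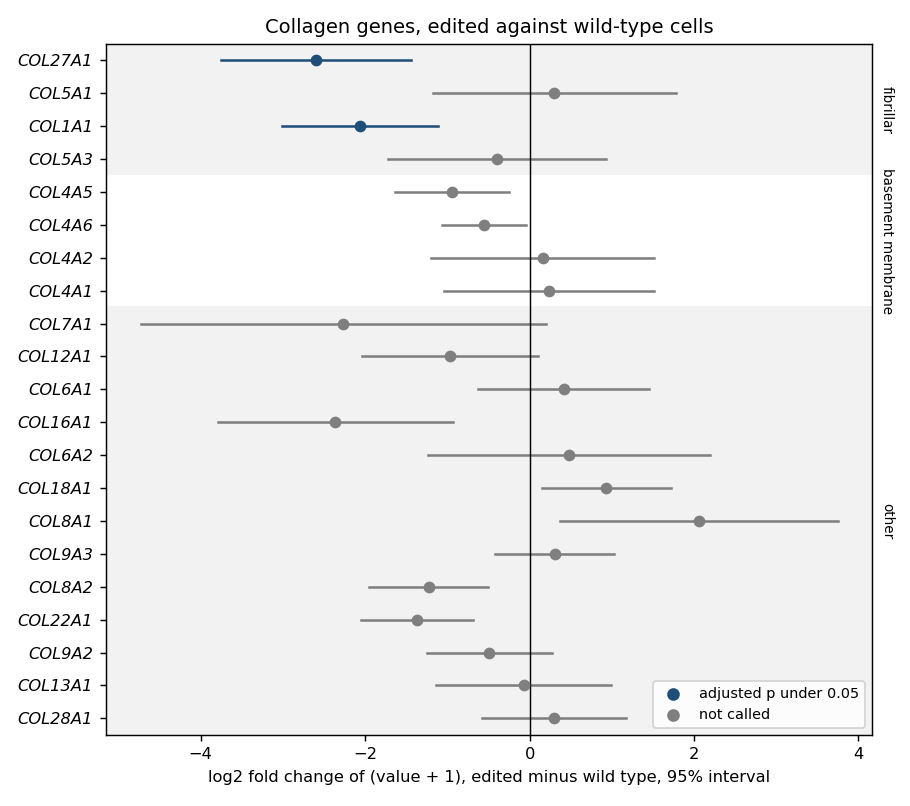
Log2 fold change of each collagen, edited minus wild type on log2(value + 1), with the 95% interval of limma, grouped by class, and with calls at an adjusted p under 0.05 set apart. The intervals of *COL27A1* (-3.75 to -1.45) and *COL1A1* (-3.01 to -1.11) are those of the 2 called genes, and that of *COL7A1* (-4.73 to 0.20) is wide.

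The edited libraries differed from each other more in their collagens than in most genes. Edited replicate 2 was above edited replicate 1 in 20 of 21 collagens, and in 47.7% of all genes. It was more than 2-fold above in 12 collagens (57.1%), against 6.54% of all genes, and the median ratio was 2.38 against 0.98. The same held in part for gene sets listed below. Edited replicate 2 was above edited replicate 1 in 6 of 7 basal markers, all 6 by more than 2-fold, and in all 3 fibroblast markers. It was above in 19 of 21 other miR-29 targets, in 3 by more than 2-fold, but in only 1 of 5 epithelial markers. In the wild type, replicate 2 was above replicate 1 in 15 of 21 collagens and in 45% of all genes, with a median ratio of 1.5. Against the wild-type mean, the collagens of edited replicate 1 had a median log2 difference of -0.61, and those of edited replicate 2 one of -0.01. The summed collagen value was 369.6 and 875.9 in edited cells and 866.5 and 1317 in wild-type cells. By this sum edited replicate 2 lay between the wild-type libraries, and edited replicate 1 lay below the other 3.

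The summed markers of the basal mammary layer, like the collagen sum, were lowest in edited replicate 1 and highest in wild-type replicate 2. All 7 listed markers were measured, and their sum was 5076 and 8285 in edited cells and 13470 and 22890 in wild-type cells. *TP63*, the transcription factor that defines basal epithelium, fell from 134 and 126 to 12.6 and 31.2 (limma adjusted p = 0.0396), while *KRT5* measured 3514 and 3056 against 4590 and 11910. Of the 5 markers shared by epithelia, *CDH1*, the cell adhesion gene E-cadherin, fell from 151 and 123 to 3.89 and 1.54 (limma adjusted p = 0.00757), and *KRT8* rose from 194 and 175 to 378 and 365 (limma adjusted p = 0.0450). *EPCAM* measured 9.93 and 5.29 in edited cells and 57.6 and 27.8 in wild-type cells (limma adjusted p = 0.0522). *KRT19* was low, at 0.471 and 0 against 2.70 and 6.42 (limma adjusted p = 0.0569), and *KRT18* overlapped between groups. Of the 5, 3 lay below the wild type without overlap and 1 above it, against 30.2% and 31.4% of all genes. The sum over these 5 was 658.4 and 667.5 in edited cells and 679.7 and 414.5 in wild-type cells. Most of this sum came from *KRT8* and *KRT18*. Of 9 fibroblast markers 3 were measured, none of them called, with a sum of 44.8 and 244 in edited cells and 76.3 and 43.2 in wild-type cells. *DCN*, decorin, and *FAP* were highest in edited replicate 2, at 105 and 114. None of 5 endothelial markers and 1 of 4 leukocyte markers, *CD14* at 8.98 to 15.1, was measured. The part of these markers in the collagen values was not tested.

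The collagens were next divided by the miR-29 match. The 13 collagens with a match had a median log2 fold change of -0.55, and the 8 without one had a median of 0.11. The sets differed in level, with a mean of at least 10 in 11 of the 13 and in 3 of the 8. The median of the 8 lies between *COL13A1* (-0.07) and *COL28A1* (0.30), both with values of at most 1.52. Over all genes the medians were -0.04 with a match and 0.04 without. Both called collagens have a match, and of the 13, 7 lay below the wild type without overlap and 1, *COL8A1*, above it. Of all 1994 genes with a match, 34.8% lay below and 29.6% above without overlap. The collagen with the most matches was *COL5A1*, with 4, and its log2 fold change was 0.30. When only matches followed by an A were taken (8-mers), the medians were -0.47 over 10 collagens with one and -0.07 over 11 without. The levels of the mature microRNAs were not analysed here.

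**Figure D4:**
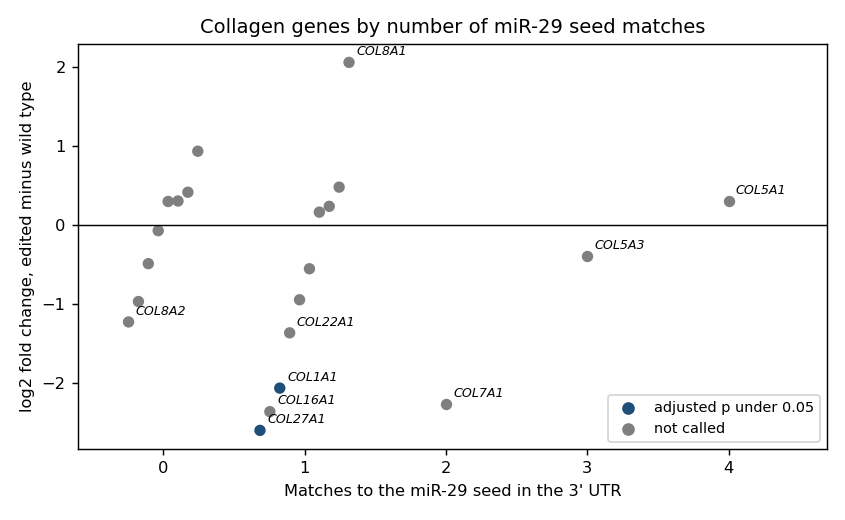
Log2 fold change of each collagen (edited minus wild type on log2(value + 1)) against the number of matches to the miR-29 seed in its 3′ UTR, with a line at 0, points of 1 match number spread sideways in order of fold change, and called genes in blue. Collagens with 1 match range from -2.60 (*COL27A1*) to 2.06 (*COL8A1*), and *COL5A1* with 4 matches lies at 0.30.

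Other known miR-29 targets gave no call. Of 26 listed genes outside the collagen family 21 were measured, and limma called 0 in either direction, with 4 higher and 2 lower at an unadjusted p under 0.05, where all genes gave 14.2% and 15%. Their median log2 fold change was 0.14. *MCL1*, a survival factor, overlapped between groups at 170 and 385 against 254 and 195.3. *LAMC1*, a laminin chain of basement membranes, overlapped as well, at 372 and 577 against 408 and 482. *PIK3R1*, a regulatory subunit of PI3 kinase chosen after its values were seen, had the lowest adjusted p of the genes above its wild-type level, at 50.5 and 49.4 against 17.2 and 25.2 (log2 fold change 1.22 ± 0.23, limma adjusted p = 0.0526).

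Genes that make, cross-link or bind collagen were measured in 36 of 43 cases. Limma called 2 lower and 0 higher, against 3.4% and 1.33% of all genes. At an unadjusted p under 0.05, 6 were lower and 8 higher, against 15% and 14.2% of all genes. The median log2 fold change was 0.04. Some of these genes, *LOXL2*, *PXDN* and *SERPINH1* among them, were also listed as miR-29 targets above, so the lists are not independent. *SERPINH1* had 0 matches to the seed in its 3′ UTR. Both called genes are prolyl hydroxylases. *P3H2*, a prolyl 3-hydroxylase that acts on type IV collagen, measured 32.1 and 41.9 in edited cells and 171 and 211 in wild-type cells (log2 fold change -2.34 ± 0.22, limma adjusted p = 0.0162). *P4HA1*, the catalytic subunit of prolyl 4-hydroxylase that stabilises the collagen triple helix, measured 26.7 and 40.8 in edited cells and 97.0 and 113 in wild-type cells (log2 fold change -1.64 ± 0.25, limma adjusted p = 0.0393). Both genes fell without overlap. The adjusted p of *P3H2* was 0.0771 when edited replicate 1 was left out, and 0.124 or 0.186 when wild-type replicate 1 or 2 was. *P4HA1* had 0.132, 0.139 and 0.235 in the same fits, and both kept their call without edited replicate 2 (0.0356 and 0.0487).

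The chaperones and enzymes of collagen folding lay on both sides. Of 20 such genes, 10 were above the wild type without overlap and 6 below it, where genes with a mean of at least 10 gave 38.3% above and 26.9% below. Their median log2 fold change was 0.21, against 0.09 over those genes. *PPIB*, *CRTAP* and *P3H1* form the complex that 3-hydroxylates fibrillar collagens. *PPIB* measured 795 and 868 in edited cells and 532 and 403 in wild-type cells (log2 fold change 0.84 ± 0.22, limma adjusted p = 0.0846). *CRTAP* measured 354 and 360 against 244 and 183, and *P3H1* measured 116 and 132 against 70.5 and 79.6. Their limma adjusted p was 0.0934 and 0.0783. *SERPINH1*, the collagen chaperone HSP47, measured 211 and 230 against 156 and 129 (limma adjusted p = 0.104), and *PLOD1*, a lysyl hydroxylase, 239 and 261 against 139 and 160 (limma adjusted p = 0.0746). All 5 had both edited libraries above both wild-type libraries, and none passed the threshold. *P4HA2*, another catalytic subunit of prolyl 4-hydroxylase, lay below without overlap, at 78.2 and 93.0 against 102 and 135 (log2 fold change -0.46 ± 0.22, limma adjusted p = 0.229). *FKBP10*, a collagen chaperone, overlapped between groups at 113 and 145 against 186 and 144 (log2 fold change -0.35 ± 0.23, limma adjusted p = 0.353).

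The receptors and cross-linking enzymes were mixed. *DDR1*, a receptor tyrosine kinase that binds collagen, measured 77.6 and 156 in edited cells and 410 and 769 in wild-type cells (log2 fold change -2.34 ± 0.45, limma adjusted p = 0.0528). The groups did not overlap. *LOXL2*, a lysyl oxidase that cross-links type IV collagen, overlapped between groups at 196 and 329 against 113 and 280. Edited replicate 2 was above edited replicate 1 in 28 of the 36 genes (77.8%), and more than 2-fold above in 7 (19.4%).

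**Figure D5:**
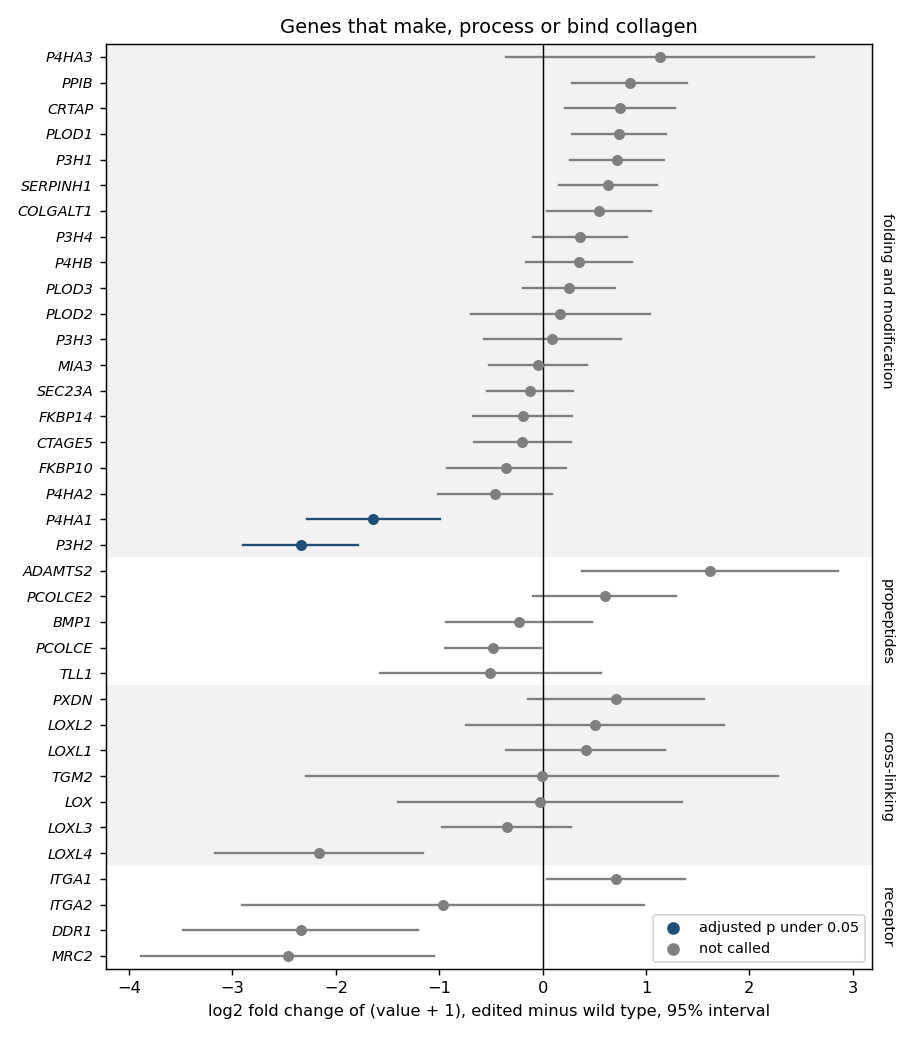
Log2 fold change (edited minus wild type on log2(value + 1)) of the 36 measured genes that fold, process, cross-link or bind collagen, with the 95% interval of limma, grouped by role. *P3H2* (-2.34) and *P4HA1* (-1.64) are the called genes, and *PPIB* (0.84), *CRTAP* (0.75) and *PLOD1* (0.74) lie on the other side.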

How the data were processed

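Poly(A)-selected RNA of 2 edited and 2 wild-type MCF12A samples was sequenced (75-base single-end reads), and groups and replicate numbers came from the sample labels. The authors deposited 1 table of 16811 genes by symbol with an expression signal per library, scaled for transcript length and between libraries. The submitters' processing notes name Salmon, HISAT2 and hg38, without versions or roles. All columns were assigned to a sample (0 were not).

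The values are not counts, so limma 3.58.1 in R 4.3.3 (lmFit, eBayes with trend) was run on log2(value + 1) over all genes with no filter and no replicate block. P-values were two-sided, adjusted after Benjamini-Hochberg and held to a threshold of 0.05. It was tested on simulated data first. The plan had allowed for counts or scaled values. Depth was estimated from the lowest values of single-transcript genes, as the value of 1 read per kb of transcript (0.0903 to 0.116). It is approximate and covers counting error only. No molecular identifiers were used, so reads are not independent molecules. Symbols were matched to GENCODE version 44 transcripts on GRCh37 for 12297 genes, and by a synonym for 709. Chromosomes, positions, microRNAs and promoters came from RefSeq on GRCh38.p14, and nothing was converted between builds. Gene positions are those of the annotation and not of the deposited table.

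Members, gene lists and markers were chosen with earlier results of these data known. Collagens called or with a group mean of at least 10 were given per library, and the rest mostly as ranges. Other genes were named if called or with a group mean of at least 100. Exceptions are *COL8A2* and *COL22A1*, given per library, and *PIK3R1*, all chosen after their values were seen, and the marker genes. Alternatives in the pseudocount, filter, scaling, variance trend, block and threshold were tried, as were fits that left out 1 library each. Python 3.11.15, pandas 2.3.3, numpy 2.4.6 and matplotlib 3.10.9 were used.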

Additional observations from a re-analysis of the deposited data

How the results depend on the processing

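With all 4 libraries, 2 collagens were called lower and 0 higher. The count of lower calls was 0 with a pseudocount of 0.1, quantile normalization or a threshold of 0.001, and 1 (*COL27A1*) with a pseudocount of 5, equal library totals, TMM factors or the replicate block. It was also 1 with no variance trend, where both calls were lost and *COL22A1* was called (adjusted p = 0.0421). When 1 library was left out it was 0 to 1, the 1 being *COL16A1* without edited replicate 2. Over all genes, 224 were called higher and 571 lower. These counts were 127 higher with a pseudocount of 0.1, 17 higher and 108 lower with the replicate block, 0 and 0 at a threshold of 0.001, and 0 to 28 higher and 0 to 220 lower with 1 library left out. Collagen-making genes called lower were 4 with a mean of at least 1, 0 at 0.001 and 0 to 2 with 1 library left out. Under the replicate block there were 2, with *P4HA1* lost (adjusted p = 0.0588) and *DDR1* called (0.0379). Of the other miR-29 targets, 1 was called higher with a mean of at least 1 or at least 10, and 1 lower with a mean of at least 1, equal library totals or no variance trend.

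Same-numbered libraries share only a number. The correlation of their deviations from the group means was -0.0927 over all genes and -0.138 over genes with a mean of at least 10. With the numbers crossed, an alternative added after the data were seen, 1 collagen was called higher and 0 lower, 1 other miR-29 target was called lower, and 159 genes were called higher and 466 lower. *P4HA1* was not called there (adjusted p = 0.0514).

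The median of the collagens stayed below 0 in every alternative, from -0.61 to -0.01. Equal library totals moved the median of all genes from 0.01 to -0.09. Of 42 named genes, 14 (8 of them collagens) changed sign somewhere. Over the fits without 1 library, the log2 fold change ranged from -0.050 to 0.64 for *COL28A1*, -0.57 to 0.43 for *COL13A1*, -0.50 to 1.45 for *COL6A2*, -1.04 to 0.25 for *COL5A3*, -0.46 to 1.06 for *COL5A1*, -0.51 to 0.98 for *COL4A1*, -0.13 to 0.95 for *COL6A1* and -0.61 to 0.94 for *COL4A2*. It ranged from -0.31 to 0.65 for *PLOD2*, -0.14 to 1.16 for *LOXL2*, -0.39 to 0.79 for *MCL1* and -0.25 to 0.38 for *LAMC1*. The sign turned without edited replicate 2 for *COL6A2*, *COL5A1*, *COL4A1*, *COL6A1*, *COL4A2*, *PLOD2*, *MCL1* and *LAMC1*, without wild-type replicate 1 for *COL28A1*, *COL13A1*, *COL5A1*, *LOXL2* and *LAMC1*, without wild-type replicate 2 for *COL5A3* and *COL4A2*, and without edited replicate 1 for *COL13A1*. Quantile and loess normalization gave 0.14 and 0.11 for *COL13A1*, -0.20 and -0.20 for *LAMC1* and -0.022 and -0.032 for *NASP*. Loess alone gave -0.067 for *PLOD2*, -0.0051 for *PLOD3* and -0.065 for *MCL1*, and equal totals -0.056 for *LAMC1*. The causes were not tested.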
